A study of Mus musculus with 12 samples.

Results

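The effect of Regnase-3 deletion in stimulated macrophages was described gene by gene, from 3 knockout and 3 wild-type libraries of bone marrow-derived macrophages treated with lipopolysaccharide (LPS) and interferon-gamma, a state called M1. The genes described were all those with at least 10 counts in at least 3 of these 6 libraries, which gave 13630 of the 56980 genes in the table, and 13607 of them could be tested. The wild-type group (WT) carried no named modification. The knockout group (cKO) came from mice named RankCre conditional knockouts of Regnase-3, in which Cre recombinase is named after RANK, the receptor encoded by Tnfrsf11a. All cells were grown from mouse bone marrow for 7 days in medium conditioned by L929 cells, and the M1 groups received LPS at 100 ng/ml with interferon-gamma at 10 ng/ml. The labels used here give neither the length of that treatment nor the age of the mice. Unstimulated libraries (M0), again 3 WT and 3 cKO, entered the fit and are named only beside M1 values. No control carrying Cre alone is described, so what Cre does and what the deletion does cannot be told apart. The labels do not say that replicates were separate animals or cultures, and the p-values then reflect only how far these libraries spread, which may be technical.

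Regnase-3, encoded by Zc3h12c, belongs to a small family of CCCH zinc finger proteins with a ribonuclease domain, whose best known member, Regnase-1, cleaves mRNAs of inflammatory genes. LPS acts through Toll-like receptor 4 on NF-kB, MAP kinases and interferon regulatory factors, and interferon-gamma acts through JAK kinases. Together they drive macrophages to make inflammatory cytokines, nitric oxide and antigen-presenting proteins.

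Library totals lay between 41721452 and 42197986 counts over all 12 libraries. The TMM factors that set the scale lay between 0.793 and 0.817 in WT M1, between 0.837 and 0.843 in cKO M1 and between 1.199 and 1.233 in the M0 libraries. Levels are given as counts scaled to library size with these factors (CPM), always for WT replicates 10, 11 and 12 and then for cKO replicates 7, 8 and 9. The first principal component of the M1 libraries held 51.9% of the variance and separated the genotypes, with WT at -21.7, -41.7 and -18.1 and cKO at 33.3, 30.5 and 17.6. WT replicate 11 therefore lay farthest from cKO, and cKO replicate 9 lay nearest to WT. The macrophage markers of a list of 12 summed to between 15260 and 17160 CPM in WT and between 16050 and 18080 CPM in cKO. Of the defining markers of other cells, those of B and plasma cells summed to between 3.28 and 5.32 CPM in WT and between 0.596 and 0.964 in cKO, and those of mast cells, basophils and eosinophils to 2.40 to 2.96 and 0.994 to 1.56. T and NK cell markers summed to 10.8 to 12 and 5.73 to 7.10 CPM, nearly all of it Cd4, and megakaryocyte markers to 129 to 154 and 96.5 to 106 CPM. The part of these markers in the results below was not tested, and in bulk samples fewer cells of a type and less RNA per cell cannot be told apart.

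The targeted gene, Zc3h12c, stood at 176, 192 and 159 CPM in WT and at 98.4, 104 and 127 CPM in cKO. All 3 cKO libraries lay below all 3 WT libraries, and cKO replicate 9 kept the most. The log2 fold change was -0.68 with a standard error of 0.12 (edgeR quasi-likelihood adjusted p = 0.00101), and fold changes below are given as value ± standard error. In M0 the mean level of Zc3h12c was 16.4 CPM in WT and 15.6 CPM in cKO, and it was not called (log2 fold change -0.07, edgeR adjusted p = 0.81). Stimulation raised it by 3.42 on the log2 scale in WT, and the 2 states differed by edgeR's interaction test (adjusted p = 0.0369). The counts are totals per gene, which also hold exons outside a deletion, so they do not measure the deletion itself. Of the 40 tested genes that flank Zc3h12c most closely in gene order, 2 were higher and 2 lower (10.0%). Of the 40 tested genes that flank Tnfrsf11a, 7 were higher and 3 lower (25%). Over all tested genes the share was 20.4%. Tnfrsf11a itself stood at 148, 104 and 150 CPM in WT and at 108, 121 and 182 CPM in cKO. The groups overlapped and it was not called (log2 fold change 0.03, edgeR adjusted p = 0.935).

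In all, 2775 of the 13607 tested genes differed between genotypes (20.4%, adjusted p under 0.05, edgeR quasi-likelihood test): 1336 were higher in cKO (9.82%) and 1439 lower (10.6%). Differences of at least 2-fold were fewer, 149 higher (1.1%) and 328 lower (2.41%), and the median fold of a called gene was 1.43 for those higher and 1.5 for those lower. The 6 libraries did not overlap for 4892 genes (36.0%). Counts of calls in the gene lists below stand beside 9.82% higher and 10.6% lower over all tested genes. Among genes at 500 CPM and above, 29 of 389 were higher and 79 lower, whereas between 5 and 50 CPM 651 of 5152 were higher and 537 lower. The genes that fell summed to 259400 CPM in WT and 183200 CPM in cKO, and those that rose to 82230 and 114500 CPM. Of the 2697 called genes without overlap, cKO replicate 9 was the cKO library nearest to WT for 61.3%, and WT replicate 11 was the WT library nearest to cKO for 9.2%. Without WT replicate 11 the counts were 661 higher and 975 lower, without cKO replicate 8 they were 694 and 969, and without cKO replicate 9 they were 1352 and 1670. With library totals in place of TMM factors, 61.6% of calls were higher in cKO, against 48.1% here.

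**Figure D1:**
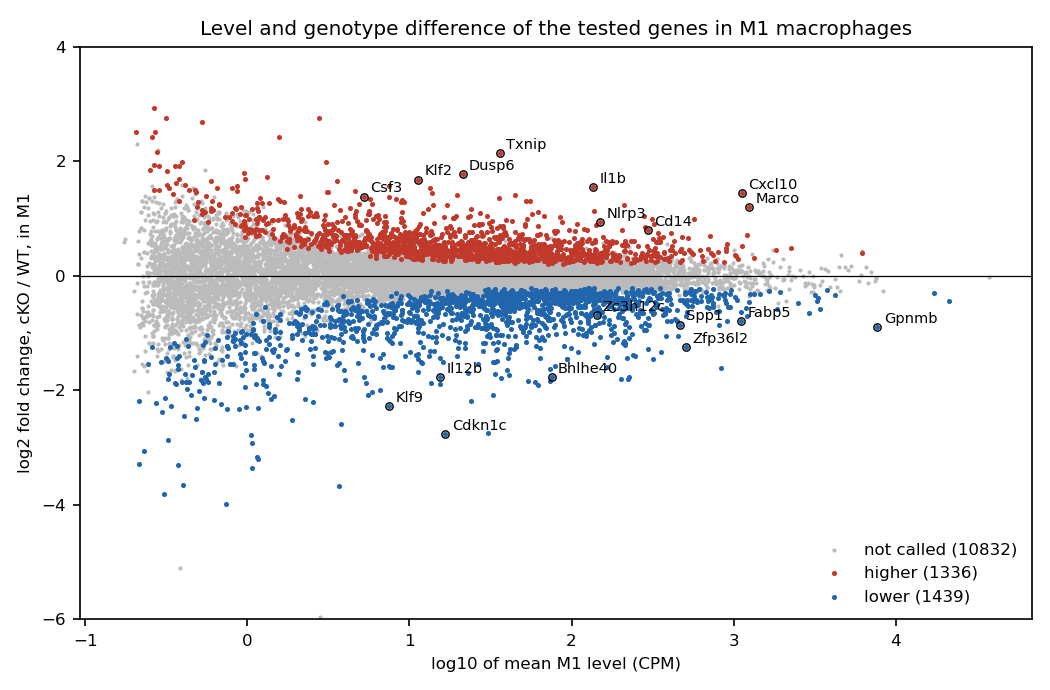
Log2 fold change of cKO over WT in M1 (vertical axis) against the log10 of the mean M1 level in CPM (horizontal axis), 1 point per tested gene; red genes were called higher in cKO (1336), blue lower (1439) and grey neither, and 3 genes lie outside the axis limits. The lower calls reach into the most abundant transcripts, among them Gpnmb, while Txnip, Dusp6 and Klf2, which rose, lie at lower levels.

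Genes of the circadian clock were lower in cKO. The clock is a loop in which CLOCK and BMAL1 activate, through E-box sequences, their own repressors (the PER and CRY proteins, BHLHE40 and BHLHE41, and the REV-ERB receptors), and it runs in macrophages, where it sets the daily range of inflammatory genes. Of 16 tested clock genes, 12 fell in cKO, 8 of them by at least 2-fold, and 1 rose, with a median log2 fold change of -0.91 against 0.02 over all 13607 genes. With each library left out in turn, 11 of the 12 kept the call, and Npas2 lost it in 9 of the 12 fits.

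Bhlhe40, a repressor that also controls cytokine genes in macrophages and T cells, stood at 105, 153 and 93 CPM in WT and at 25.6, 28 and 49.3 CPM in cKO (log2 fold change -1.77 ± 0.22, adjusted p = 0.00011). Its paralogue Bhlhe41 stood at 98.5, 152 and 106 CPM and at 34.2, 30.9 and 53.8 CPM (log2 fold change -1.58 ± 0.18, adjusted p = 6.22e-05). In both genes the groups lay apart, WT replicate 11 was the highest WT library and cKO replicate 9 the highest cKO library. Nr1d2, which encodes REV-ERB beta, stood at 50.9, 65.7 and 46.9 CPM and at 25.8, 23.5 and 29.9 CPM (log2 fold change -1.05 ± 0.13, adjusted p = 9.79e-05). Per2 stood at 13.2, 16.7 and 13.6 CPM and at 4.23, 4.85 and 8.23 CPM (log2 fold change -1.33 ± 0.20, adjusted p = 0.000396). Again no cKO library reached a WT library. Ciart and Nr1d1, 2 further repressors, fell by 1.58 and 1.30 on the log2 scale, and the output activators Dbp and Tef fell by 1.14 and 0.77. Cry1 fell by 0.74, Per1 by 0.64 and Clock itself by 0.53.

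Of the other 4 genes, 1 rose and 3 were not called. Nfil3, which represses D-box genes that DBP activates, rose by 0.35 (adjusted p = 0.0345), a call lost without WT replicate 10 or 11 or cKO replicate 7 or 8. Arntl, which encodes BMAL1, stood at 6.93, 5.98 and 6.07 CPM in WT and at 8.41, 7.77 and 7.81 CPM in cKO, without overlap, but missed the threshold (log2 fold change 0.34, adjusted p = 0.0943). Cry2 and Per3 had values of -0.06 and -0.38 and were not called. Rora, an activating receptor of the same loop that is not in the list, fell by 1.51 (adjusted p = 0.000146). In M0 the median of the clock list was -0.22 and 1 member, Dbp, was called, against 1.74% of all genes. The difference between the states passed the interaction test for 6 of the 16, among them Bhlhe41 (adjusted p = 0.0043), Bhlhe40 (adjusted p = 0.013) and Nr1d2 (adjusted p = 0.016), against 8.98% of all genes. The labels used here give no time of harvest, and its part in these values was not tested.

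Since E-boxes are the element through which this loop acts, the promoters of its members were read for CACGTG, which is the same on both strands. Windows from 250 bases before to 50 bases after a transcription start, from RefSeq on GRCm38.p6, were given for 9598 of the tested genes, and 11.7% of these hold CACGTG. The motif was chosen after the expression values were seen. It occurs in 5 of the 14 clock members with a window, and those 5 (Ciart, Bhlhe41, Per1, Cry1 and Tef) are all among the 10 with a window that fell. The windows of Ciart (chr3:95882179-95882478, minus strand), with 3 copies, and Bhlhe41 (chr6:145865371-145865670, minus strand), with 1, are shown with CACGTG in capitals.
Ciart: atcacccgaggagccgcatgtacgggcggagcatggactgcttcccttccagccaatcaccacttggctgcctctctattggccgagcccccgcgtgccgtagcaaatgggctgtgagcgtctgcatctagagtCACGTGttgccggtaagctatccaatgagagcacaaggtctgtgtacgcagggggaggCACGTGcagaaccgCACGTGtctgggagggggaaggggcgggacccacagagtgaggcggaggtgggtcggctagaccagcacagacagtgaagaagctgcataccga
Bhlhe41: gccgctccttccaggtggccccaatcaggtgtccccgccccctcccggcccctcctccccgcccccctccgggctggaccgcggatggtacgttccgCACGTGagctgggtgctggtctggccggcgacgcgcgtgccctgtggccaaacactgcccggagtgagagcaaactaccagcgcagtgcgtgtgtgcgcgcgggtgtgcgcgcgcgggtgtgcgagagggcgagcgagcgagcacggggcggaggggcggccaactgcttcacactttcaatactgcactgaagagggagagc
In Ciart the copies begin 116, 58 and 44 bases before the start, and in Bhlhe41 the copy begins 153 bases before it. A match is a description of the letters and does not show that a factor binds there.

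A larger group that fell, by smaller amounts, was that of the lysosome. Lysosomes are the acid compartments in which macrophages break down what they take up, and the V-ATPase is the pump that acidifies them. Of 52 lysosomal and V-ATPase genes, 25 fell and 1 rose, with a median of -0.24, and 15 of the 25 kept the call with each library left out in turn. With library totals in place of TMM factors 17 fell. Hydrolase genes of high level were among them. Ctsd, which encodes cathepsin D, stood at 4552, 4648 and 4936 CPM in WT and at 3557, 3598 and 3989 CPM in cKO (log2 fold change -0.34 ± 0.07, adjusted p = 0.00497). Lipa, the lysosomal acid lipase gene, stood at 1457, 1496 and 1328 CPM and at 881, 953 and 1056 CPM (log2 fold change -0.57 ± 0.08, adjusted p = 0.000241). The libraries of the genotypes did not overlap in either gene, and the step between them was small beside the level. Cd68, which encodes a lysosomal glycoprotein used as a macrophage marker, fell by 0.46, and the V-ATPase subunit genes Atp6v1c1, Atp6v1a and Atp6v1d fell by 0.67, 0.54 and 0.52. Atp6v0d2, a V-ATPase subunit of osteoclasts and macrophages, fell farthest, from 105, 153 and 88 CPM to 25.5, 25.2 and 46.7 CPM (log2 fold change -1.83 ± 0.25, adjusted p = 0.000177). The member that rose was Ctsc, which encodes cathepsin C, at 1639.9, 1393 and 1584 CPM in WT and 2207, 2245 and 1892 CPM in cKO (log2 fold change 0.46, adjusted p = 0.0033).

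TFEB is a transcription factor that activates lysosomal and autophagy genes through E-box-like elements, and the folliculin complex (Flcn with Fnip1 or Fnip2) takes part in holding it in the cytoplasm when nutrients are plentiful. Tfeb fell by 0.67 (adjusted p = 0.00151), Flcn by 0.84 (adjusted p = 0.000238), Fnip1 by 0.74 (adjusted p = 9.79e-05) and Fnip2 by 0.79 (adjusted p = 0.000649). These 4 genes were put side by side after their values were seen, and Flcn and Fnip1 are also counted in the autophagy list below. Mcoln1, the lysosomal calcium channel and a member of the lysosomal list above, stood at 119.7, 149 and 120.3 CPM in WT and 85.3, 84.3 and 98 CPM in cKO (log2 fold change -0.54, adjusted p = 0.00133). Of 28 autophagy genes 8 fell and 1, Ulk2, rose (32.1% called, against 20.4% of all genes). Of the 8 that fell, 5 kept the call with each library left out in turn. The largest fall in that list was that of Optn, which encodes the cargo receptor optineurin. It went from 51.7, 74.1 and 50.4 CPM to 25.2, 21.2 and 25.9 CPM (log2 fold change -1.28 ± 0.13, adjusted p = 3.89e-05). Sqstm1, which encodes the cargo receptor p62, fell by 0.47. Most core autophagy genes, among them Atg5, Atg7 and Atg3, were not called, with log2 fold changes of -0.10, -0.19 and -0.18.

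CACGTG lies in 14 of the 39 lysosomal and V-ATPase windows and in 9 of the 17 that belong to genes that fell, beside 11.7% of all windows of tested genes. The window of Mcoln1 (chr8:3500269-3500568, plus strand) is shown as one that holds 2 copies, which begin 71 and 45 bases before the start.
Mcoln1: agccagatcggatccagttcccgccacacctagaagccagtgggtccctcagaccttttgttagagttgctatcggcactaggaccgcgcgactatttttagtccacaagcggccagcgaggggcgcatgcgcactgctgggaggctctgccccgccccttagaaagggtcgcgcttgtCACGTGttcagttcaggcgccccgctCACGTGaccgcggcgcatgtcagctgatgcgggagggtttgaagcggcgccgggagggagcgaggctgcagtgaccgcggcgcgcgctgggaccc
Lamp1, which was not called (log2 fold change -0.21), has 4 copies, so a gene with the letters was not always a gene with a call.

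Macrophages that take up lipid in fat tissue and plaques carry a known set of transcripts. Of 19 genes of these lipid-associated macrophages, 11 fell by the edgeR test and 0 rose (1 rose at an unadjusted p under 0.05, and 1 by DESeq2 and by limma-voom), with a median of -0.34. Gpnmb, a transmembrane glycoprotein that marks such cells and lysosomal stress, was among the most abundant transcripts, at 9762, 10266 and 10041 CPM in WT and 4592, 5083 and 6555 CPM in cKO (log2 fold change -0.89 ± 0.12, adjusted p = 0.000202). Every cKO library lay well below every WT library. Fabp5, a fatty acid carrier, fell by 0.78 and its relative Fabp4, which is not in the list, by 1.43. Spp1, which encodes the secreted protein osteopontin, stood at 609, 634 and 552 CPM and at 344, 315 and 337 CPM (log2 fold change -0.85 ± 0.08, adjusted p = 3.14e-05). Itgax, which encodes CD11c, fell by 0.95, and Trem2, the lipid-sensing receptor, by 0.34, a call lost without WT replicate 10 or 12, cKO replicate 7 or 8 or unstimulated WT replicate 6. The list of RANK-dependent and osteoclast genes, to which Atp6v0d2 also belongs, had 9 of 18 lower and 1, Fosl2, higher. There Itgb3 (integrin beta 3), Acp5 (the phosphatase TRAP), Car2 (a carbonic anhydrase) and Src fell by 1.88, 0.97, 0.80 and 0.65. Among lipid mediator genes, Mgll, which encodes the lipase that ends endocannabinoid signals, stood at 9.07, 10.7 and 8.70 CPM and at 1.79, 2.04 and 3.14 CPM (log2 fold change -2.03 ± 0.26, adjusted p = 0.000117). Of 27 cholesterol synthesis genes 3 fell by edgeR's test (11.1%, against 10.6% of all genes), among them Insig1 and Mvd at -0.91 and -0.79, and 0 rose (1 at an unadjusted p under 0.05, 0 by DESeq2 and by limma-voom). Ch25h, which makes the antiviral oxysterol hydroxycholesterol, rose from 7.28, 4.78 and 8.53 CPM to 25.2, 22.8 and 11.7 CPM (log2 fold change 1.53 ± 0.25, adjusted p = 0.000676).

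**Figure D2:**
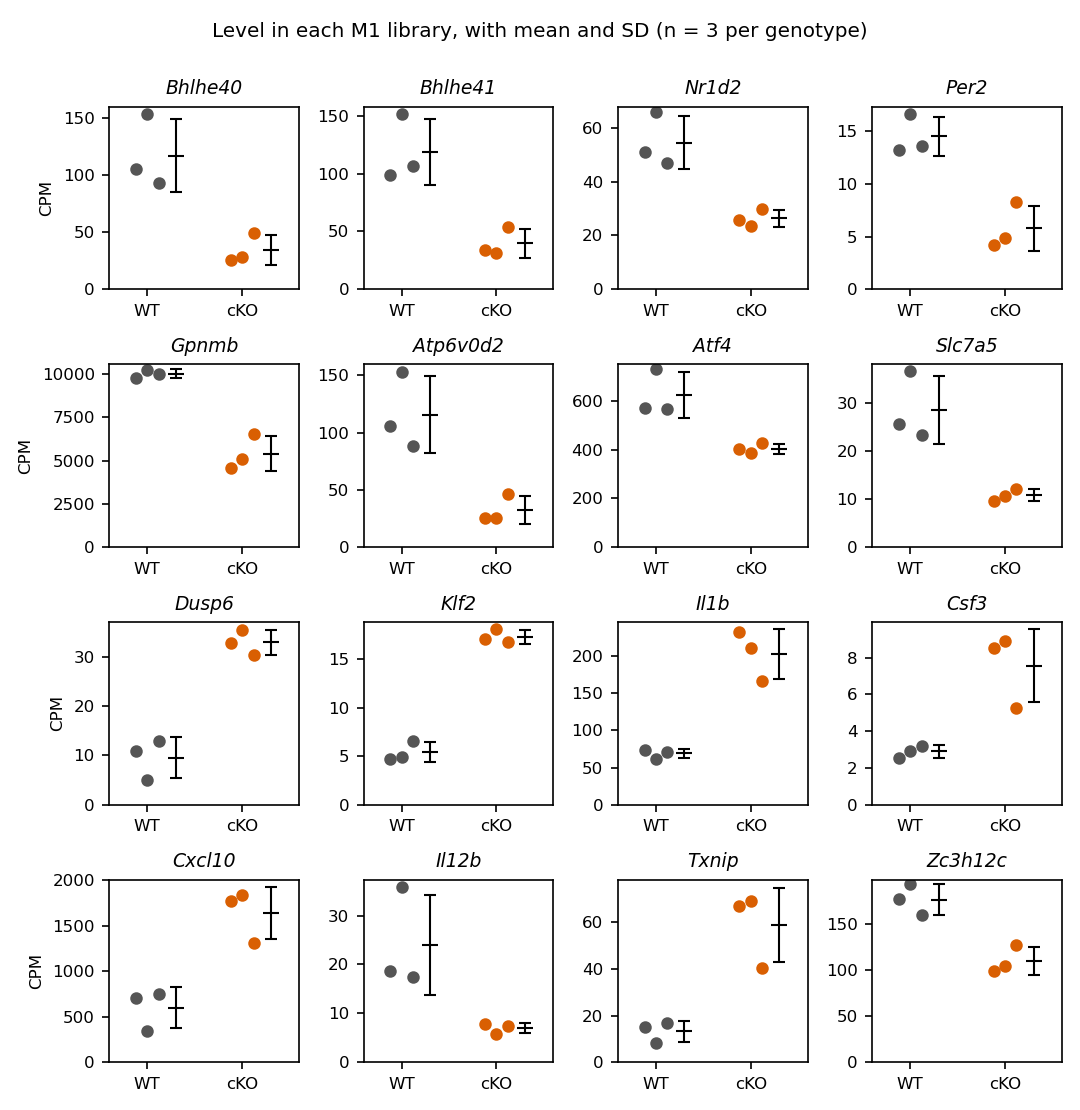
Level in CPM (vertical axes, each starting at 0) of 16 genes in each of the 3 WT (grey) and 3 cKO (orange) M1 libraries, with the mean and SD beside the points. The groups lie apart in every panel, and in most of them the cKO point at the right of its group, replicate 9, lies nearest to WT.

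In the integrated stress response, the factor ATF4 raises amino acid transport and synthesis genes when translation is slowed. Many of its genes had lower transcript levels in cKO. Of 39 genes of this response and the unfolded protein response, 18 fell and 0 rose (edgeR; 4 were higher at an unadjusted p under 0.05, and 0 by DESeq2 and by limma-voom), with a median of -0.30. Leaving out each library in turn left 16 of the 18 called. Of the 39 genes, 14 had a log2 fold change above 0. Atf4 stood at 571, 735 and 570.4 CPM in WT and at 403, 386 and 427 CPM in cKO (log2 fold change -0.63 ± 0.10, adjusted p = 0.000498). Its cKO libraries lay close together and below WT, with WT replicate 11 the highest of all. Slc7a5, the large neutral amino acid transporter, stood at 25.6, 36.6 and 23.4 CPM and at 9.63, 10.5 and 12.1 CPM (log2 fold change -1.41 ± 0.17, adjusted p = 0.0001). Its partner Slc3a2 fell by 0.70. The asparagine synthetase gene Asns fell by 0.98, the serine synthesis gene Phgdh by 1.29 and the mitochondrial folate gene Mthfd2 by 0.63. Of the genes that act when stress persists, Ddit3, which encodes CHOP, fell by 0.83, the pseudokinase gene Trib3 by 0.88, the glutathione-degrading enzyme gene Chac1 by 1.09 and the phosphatase subunit gene Ppp1r15a by 1.05. On the side of the endoplasmic reticulum, Herpud1, Dnajb9 and the chaperone gene Hspa5 fell by 0.69, 0.50 and 0.31, and Ern1, the sensor IRE1, by 0.72. The call of Hspa5 was lost without WT replicate 11 or cKO replicate 8.

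In M0 none of these genes was called lower. The median of the list there was 0.08, Atf4 had a log2 fold change of 0.17, and Chac1 rose by 0.88 (adjusted p = 0.0463). The interaction passed for 12 of the 39, against 8.98% of all genes, among them Slc7a5 (adjusted p = 0.001), Phgdh (adjusted p = 0.0014) and Atf4 (adjusted p = 0.0041). Of 18 heat shock genes, 4 fell and 0 rose by edgeR (22.2% called, against 20.4% of all genes in either direction). At an unadjusted p under 0.05, by DESeq2 and by limma-voom, 0 were higher. Hspa8, the constitutive HSC70 chaperone, went from 3237, 4432 and 2998 CPM to 2203, 2242 and 2319.5 CPM (log2 fold change -0.66 ± 0.11, adjusted p = 0.00116).

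ATF4 binds, with C/EBP partners, a composite element read here as TGATGNAA on either strand, which was also chosen after the values were seen. It lies in 7 of the 34 windows of the stress list and in 5 of the 17 windows whose genes fell (29.4%), beside 2.87% of windows of tested genes. The windows of Asns (chr6:7693160-7693459, minus strand) and Trib3 (chr2:152344011-152344310, minus strand) are shown, since both are classical genes of this response, with the matching letters in capitals.
Asns: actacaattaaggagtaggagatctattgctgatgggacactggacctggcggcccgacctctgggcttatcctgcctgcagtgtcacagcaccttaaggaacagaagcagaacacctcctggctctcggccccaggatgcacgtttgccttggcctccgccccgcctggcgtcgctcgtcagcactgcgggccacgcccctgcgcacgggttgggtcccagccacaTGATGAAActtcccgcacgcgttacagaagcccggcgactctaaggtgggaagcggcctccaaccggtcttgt
Trib3: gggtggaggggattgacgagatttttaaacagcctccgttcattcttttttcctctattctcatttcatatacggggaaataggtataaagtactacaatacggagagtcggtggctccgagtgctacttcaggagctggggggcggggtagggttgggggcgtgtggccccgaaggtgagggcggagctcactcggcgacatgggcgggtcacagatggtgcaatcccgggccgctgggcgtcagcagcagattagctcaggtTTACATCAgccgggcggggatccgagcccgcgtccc
The match begins 23 bases before the start in Asns and lies at position 15 after it in Trib3, on the other strand. Slc7a11, the cystine transporter, has 2 matches and was not called (log2 fold change -0.25).

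**Figure D3:**
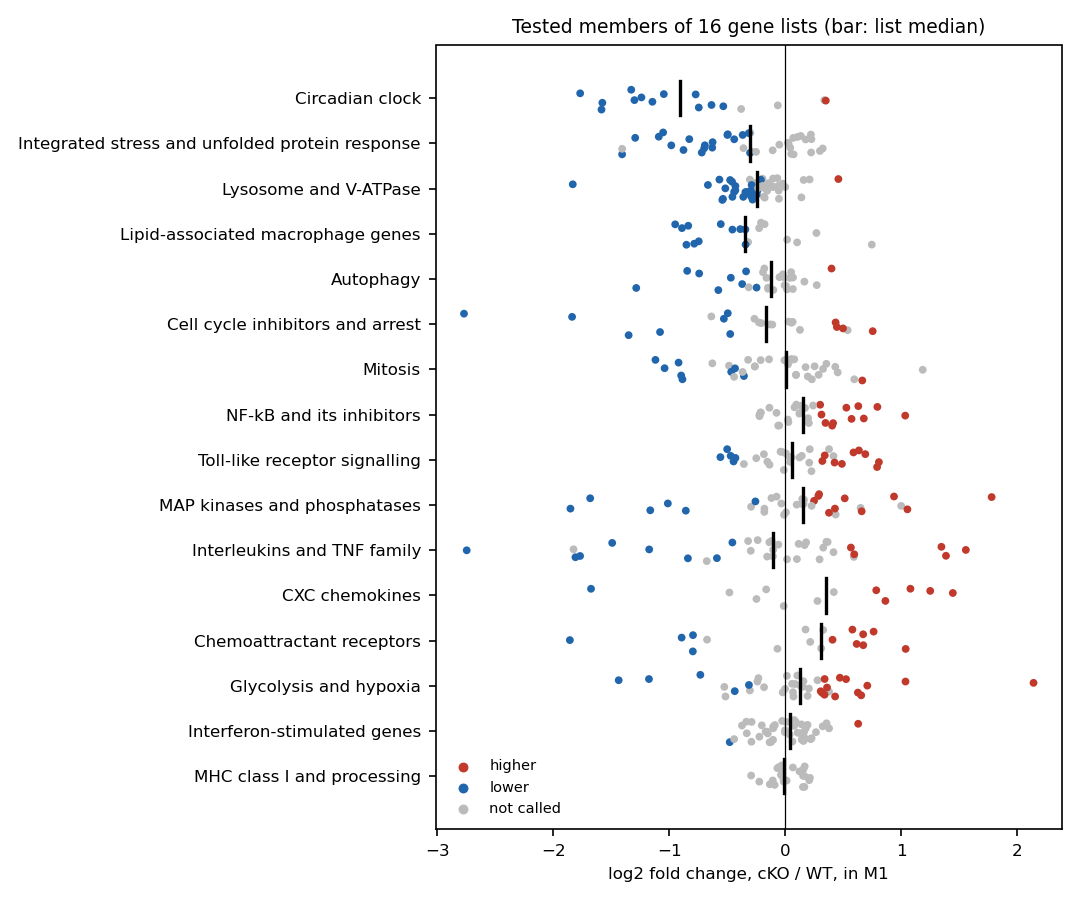
Log2 fold change of cKO over WT in M1 (horizontal axis) for every tested member of 16 gene lists (1 line each), with called genes in red (higher) or blue (lower), other genes in grey and a black bar at the list median. The clock list lies farthest to the left with a median of -0.91, most lysosomal genes lie a little below 0, and the interferon-stimulated and MHC class I lists stay near 0.

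Growth arrest genes split between both directions, with 7 of 22 lower and 4 higher in cKO. The GADD45 proteins are small stress-induced proteins that bind cyclin-dependent kinase 1 and MAP kinase kinase kinases. Gadd45a stood at 70.2, 117 and 66.8 CPM in WT and at 23, 18.2 and 30 CPM in cKO (log2 fold change -1.84 ± 0.23, adjusted p = 0.00011). Gadd45g fell by 1.35 (adjusted p = 3.14e-05) and Gadd45b by 1.08 (adjusted p = 0.00021), so that all 3 members of the family were lower and without overlap. Cdkn1c, which encodes the inhibitor p57, stood at 23, 39 and 25.2 CPM and at 3.55, 3.49 and 5.74 CPM. The other inhibitors of its family went the opposite way. Cdkn1a, which encodes p21, rose by 0.75 (adjusted p = 0.000308) and Cdkn1b, which encodes p27, by 0.43 (adjusted p = 0.0048). Of 37 mitosis genes 8 fell and 1 rose (24.3% called, against 20.4% of all genes), around a median of 0.01. The 8 that fell had WT levels between 4.39 CPM (Bub1b) and 64.5 CPM (Tpx2) in M1. Kif23, a spindle kinesin, stood at 5.18, 4.99 and 5.30 CPM in WT M1 and 2.39, 3.18 and 2.74 CPM in cKO M1, beside a mean of 136 CPM in unstimulated WT cells. Mki67, the proliferation marker, fell by 1.04, the centromeric histone gene Cenpa by 1.12 and Ccnb1, which encodes cyclin B1, by 0.89.

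Genes of LPS sensing changed in both directions. Of 33 Toll-like receptor signalling genes 9 rose and 5 fell (42.4% called, against 20.4% of all genes), with a median of 0.06. Cd14, which passes LPS to Toll-like receptor 4, stood at 213, 226 and 213 CPM in WT and at 391, 389 and 348 CPM in cKO (log2 fold change 0.79 ± 0.09, adjusted p = 8.07e-05). Replicates differed little in either group, and all cKO libraries were higher. Tlr8, an endosomal RNA sensor, rose by 0.81, Tlr2 by 0.49, the adaptor genes Tirap and Myd88 by 0.69 and 0.59, and Irak3, an inhibitor of the same pathway, by 0.64. Tlr4 itself rose by 0.32 (adjusted p = 0.0342), a call lost without WT replicate 11 or cKO replicate 7, 8 or 9. On the other side, the ubiquitin ligase gene Traf6 fell by 0.50, Irak2 by 0.47 and Tollip, which dampens receptor signals, by 0.56.

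The NF-kB list, which holds the factors and their inhibitors, had 11 of 30 genes higher and 0 lower by edgeR (3 lower at an unadjusted p under 0.05, 2 by DESeq2 and 0 by limma-voom), with a median of 0.15, and 7 of the 11 kept the call with each library left out. Inhibitors were among them. Nfkbiz, which encodes the nuclear inhibitor-like protein that licenses secondary response genes, stood at 59.6, 42.3 and 64.6 CPM and at 114, 119 and 108 CPM (log2 fold change 1.04 ± 0.14, adjusted p = 0.000197). Nfkbie rose by 0.80, Nfkbid by 0.63 and Nfkbia by 0.30. Map3k14, the kinase of the alternative pathway, rose by 0.68 and Nfkb1 by 0.53. The call of Nfkbia was lost without WT replicate 10 or 12 or cKO replicate 7 or 8. Genes of mRNA decay, the process in which Regnase proteins act, had 6 of 41 higher and 2 lower (19.5%, against 20.4% of all genes). Zfp36l2, which encodes an AU-rich element binding protein, stood at 653, 832 and 665 CPM and at 231, 258 and 414 CPM (log2 fold change -1.25 ± 0.17, adjusted p = 0.000177). Its relatives Zfp36, which encodes tristetraprolin, and Zfp36l1 rose by 0.41 and 0.42, and Zfp36 lost its call without WT replicate 10 or 11 or cKO replicate 8 or 9. Malt1, the protease that cleaves Regnase-1, fell by 0.72, and Zc3h12a, which encodes Regnase-1, was not called (log2 fold change 0.12, 95% interval -0.09 to 0.34).

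Phosphatases that switch off MAP kinases went both ways. DUSP6 is a cytoplasmic phosphatase of ERK and, with Sprouty proteins, a common readout of ERK feedback. Dusp6 stood at 10.9, 4.99 and 12.9 CPM in WT and at 32.8, 35.5 and 30.5 CPM in cKO (log2 fold change 1.78 ± 0.22, adjusted p = 9.92e-05). Spry2 rose by 1.05, Dusp2 by 0.94, Spred2 by 0.66 and Dusp16 by 0.51. Dusp4, a nuclear phosphatase, stood at 65.8, 81.4 and 69.4 CPM and at 26.8, 29.5 and 40.4 CPM (log2 fold change -1.16 ± 0.16, adjusted p = 0.00018). Dusp8, Dusp5 and Errfi1, an inhibitor of the EGF receptor, fell by 1.68, 0.86 and 1.01. Early response genes also went both ways, with 8 of 35 higher and 4 lower. Egr1, Ier2, Btg2 and Fosl2 rose by 1.12, 1.29, 1.17 and 0.98, whereas Myc, Id2 and Egr2 fell by 0.82, 0.69 and 0.51. Fosb was close to the limit of detection, at 0.117, 0.0601 and 0.0586 CPM in WT and 0.341, 0.482 and 0.566 CPM in cKO. Calls were lost without WT replicate 11 for Spred2, Myc, Fosb and Egr2, and that of Egr2 also without 5 other libraries.

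Secreted cytokines did not move as 1 group. Of 35 interleukins and TNF family genes 5 rose and 8 fell, with a median of -0.10. Il1b, which encodes IL-1 beta, stood at 73.9, 61.9 and 71.6 CPM in WT and at 233, 211 and 167 CPM in cKO (log2 fold change 1.56 ± 0.15, adjusted p = 3.48e-05). Csf3, which encodes G-CSF, stood at 2.54, 2.95 and 3.19 CPM and at 8.55, 8.91 and 5.26 CPM (log2 fold change 1.39 ± 0.23, adjusted p = 0.0019). Il6 rose from 3.74, 3.40 and 2.58 CPM to 12.1, 7.91 and 4.75 CPM (log2 fold change 1.35 ± 0.30, adjusted p = 0.0056). In these 3 genes the cKO libraries spread widely, with replicate 9 lowest, yet stayed above WT. Tnf, at 273, 254 and 288 CPM against 444, 421 and 367 CPM, rose by 0.60 (adjusted p = 0.00117). The receptor antagonist of IL-1, Il1rn, was far more abundant than these and went down, from 4249, 4118 and 3881 CPM to 2752, 2712 and 2682 CPM (log2 fold change -0.59 ± 0.11, adjusted p = 0.00196). Il12b, the shared subunit of IL-12 and IL-23, stood at 18.6, 35.8 and 17.5 CPM and at 7.78, 5.84 and 7.47 CPM (log2 fold change -1.77 ± 0.25, adjusted p = 0.000425). Gdf15, a stress-induced hormone of the TGF-beta family, fell from 273, 477 and 289.8 CPM to 80.6, 77.6 and 139 CPM (log2 fold change -1.81 ± 0.23, adjusted p = 0.00011). Gdf3 and Tnfsf15 fell by 2.75 and 1.49. Il1a and Il10 were not called, with 0.02 and 0.59 on the log2 scale (adjusted p = 0.958 and adjusted p = 0.0605).

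Chemokines rose more than they fell in the CXC family, 5 of 12 against 1, and all 5 kept the call with each library left out in turn. Cxcl10, which draws T cells through CXCR3, stood at 709, 343 and 754 CPM and at 1773, 1834 and 1313 CPM (log2 fold change 1.45 ± 0.33, adjusted p = 0.00702). Cxcl1, Cxcl3 and Cxcl2, which draw neutrophils, rose by 1.25, 0.86 and 0.79, and Cxcl11 rose by 1.08. Cxcl9, which shares CXCR3 with Cxcl10 and Cxcl11, was not called and had the opposite sign, with 2080.0, 2722 and 1799 CPM in WT and 1831, 1578 and 1322 CPM in cKO (log2 fold change -0.48, adjusted p = 0.136). Among CC chemokines the monocyte attractants Ccl7 and Ccl2 rose by 0.99 and 0.70, but Ccl2 kept the call in 7 of the 12 fits that left out 1 library, and Ccl7 lost it without WT replicate 11. Ccl24, Ccl9 and Ccl6 fell by 1.53, 0.52 and 0.48, with the call of Ccl24 lost without cKO replicate 8 and that of Ccl6 without WT replicate 10 or 11 or cKO replicate 8 or 9, and Ccl5, at 3527 to 3976 CPM in WT and 3604 to 4183 CPM in cKO, overlapped.

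Of 17 receptors for chemoattractants 7 rose and 4 fell, with a median of 0.31. Fpr1, the receptor of bacterial formyl peptides, stood at 198, 165 and 186 CPM and at 388, 416 and 324 CPM (log2 fold change 1.04 ± 0.15, adjusted p = 0.0003). Its relative Fpr2, the complement receptor gene C5ar1, Ccr3 and Ccr1 rose by 0.62, 0.67, 0.76 and 0.67, and Ccr1 lost its call without cKO replicate 7 or 8. Cxcr4, the receptor that holds cells in bone marrow, went the other way, from 79.9, 129 and 72.3 CPM to 21.4, 18.4 and 38 CPM (log2 fold change -1.86 ± 0.25, adjusted p = 0.000177). Ptafr, the receptor of platelet-activating factor, fell by 0.79 and Ccrl2 by 0.89. Other G protein-coupled receptors showed the same mix, with 14 of 39 higher and 8 lower. Gpr18, Gpr84 (a receptor of medium-chain fatty acids), Adora3 and Gpr65 rose by 1.45, 1.11, 1.06 and 1.02. Gprc5b and Gpr157 fell by 1.90 and 1.62. Gpr65, which encodes a proton-sensing receptor, stood at 14.3, 10.5 and 12.2 CPM in WT and 23.3, 26.9 and 25 CPM in cKO, without overlap. Downstream in the cyclic AMP pathway the phosphodiesterase genes Pde4b and Pde4d differed in sign, since Pde4b rose by 1.30 and Pde4d fell by 1.87. Pde4d lay near the floor, with 23, 51 and 32 counts in WT and 11, 12 and 7 in cKO. Rapgef3, which encodes the cAMP-activated exchange factor EPAC1, fell by 1.72.

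The inflammasome list had 8 of 29 genes higher and 7 lower. Nlrp3, the sensor that activates caspase-1 for the release of IL-1 beta, stood at 106, 96.4 and 107 CPM and at 195, 201 and 199.9 CPM (log2 fold change 0.94 ± 0.09, adjusted p = 3.14e-05). Both groups were tight and far apart. Nlrc4, the adaptor gene Pycard and Mefv rose by 0.68, 0.51 and 0.41, whereas Naip2, Naip5 and Naip6, which encode partners of NLRC4, fell by 0.45, 0.29 and 0.54. The Naip genes are near-identical copies, so reads may be split between them and these 3 values are uncertain, and the call of Naip5 was lost in 9 of the 12 fits that left out 1 library.

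Of 38 genes of the interferon-gamma response 7 rose and 3 fell (26.3%, against 20.4% of all genes), with a median of 0.07. Of 47 interferon-stimulated genes 1 rose, Eif2ak2, and 1 fell, Oas2 (log2 fold changes 0.63 and -0.48). That is 4.26% called, against 20.4% of all genes. With no filter on low counts 4 rose and 6 fell. Isg15 stood at 728, 622 and 860.1 CPM in WT and 974, 727 and 613 CPM in cKO, so the groups overlapped. Of 19 guanylate-binding and immunity-related GTPase genes 1 rose, Iigp1 (log2 fold change 0.71, adjusted p = 0.0232), with 1118, 632 and 1020.2 CPM against 1721, 1599 and 1218 CPM. Without WT replicate 11 or cKO replicate 8 the calls of Eif2ak2 and Iigp1 were lost, that of Oas2 without WT replicate 11 or cKO replicate 7, and that of Iigp1 without cKO replicate 7 too. The median of the GTPase list was 0.25, and without the filter on low counts 9 rose and 1 fell. Of 23 MHC class I and processing genes 0 were called (edgeR; 1 in each direction at an unadjusted p under 0.05, 0 by DESeq2 and by limma-voom), and no log2 fold change lay outside -0.29 to 0.21. B2m, the light chain of MHC class I, stood between 6998 and 8118 CPM in WT and between 6859 and 7839.6 CPM in cKO. In the MHC class II list 4 of 17 fell and 1 rose (29.4% called, against 20.4% of all genes). Its master regulator Ciita fell from 45.4, 47.7 and 39 CPM to 24.8, 27.6 and 33.2 CPM (log2 fold change -0.63, adjusted p = 0.00787) and H2-Aa fell by 0.56, a call lost without WT replicate 11 or cKO replicate 7 or 8. In M0 Ciita fell by 1.12 and H2-Aa by 0.93. B and plasma cells and dendritic cells also express class II genes. Dendritic cell markers summed to 844 to 946 CPM in WT and 734 to 983 CPM in cKO, most of it Bst2. Bst2 had 26252, 26748 and 29648 counts in WT and 31952, 25168 and 23012 in cKO. Zbtb46, of the same list, had 2, 6 and 8 counts in WT and 2, 10 and 10 in cKO. The sum therefore does not measure how many dendritic cells were present. Among feedback genes of the JAK pathway Socs1 rose from 126, 83.9 and 166 CPM to 316, 323 and 249 CPM (log2 fold change 1.24 ± 0.21, adjusted p = 0.000927) and Socs3 by 0.35, while Irf1 was not called (log2 fold change 0.22).

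Genes of nitric oxide, itaconate and arginine metabolism were read next. Nos2, the inducible nitric oxide synthase gene, stood at 5466, 4829 and 5614 CPM in WT and at 6304, 7459 and 7675 CPM in cKO. The libraries did not overlap, but the difference missed the threshold (log2 fold change 0.43 ± 0.19, adjusted p = 0.137). Acod1, which makes itaconate, rose by 0.40 (adjusted p = 0.04), the arginine transporter gene Slc7a2 by 0.60, Arg1 by 0.84 and Ido1 by 0.83. The transporter Slc7a1 and the polyamine genes Azin1 and Odc1 fell by 0.99, 0.79 and 0.52. Calls were lost without cKO replicate 8 for Acod1, Arg1 and Odc1, and that of Acod1 in 6 of the 12 fits. Of 10 NADPH oxidase genes 0 were called (edgeR; 1 higher at an unadjusted p under 0.05, 0 by DESeq2 and by limma-voom). In the glycolysis and hypoxia list 13 of 39 rose and 5 fell, 6 and 2 of which kept the call with each library left out. Txnip, which blocks glucose uptake and thioredoxin, stood at 15, 8.27 and 16.8 CPM and at 67, 69.2 and 40.5 CPM (log2 fold change 2.14 ± 0.22, adjusted p = 3.66e-05). Pdk1, Slc16a3 (a lactate exporter), Hk1 and Slc2a1 (the glucose transporter GLUT1) rose by 0.71, 0.66, 0.52 and 0.36, and Slc2a1 lost its call when any of 5 M1 libraries was left out. Vegfa, a hypoxia-induced growth factor, fell from 232, 419 and 234 CPM to 114, 113 and 165 CPM (log2 fold change -1.17 ± 0.21, adjusted p = 0.00136), and Eno2 fell by 1.44. Of 34 genes of the citrate cycle and pentose phosphate pathway 1 rose and 1 fell (5.88% called, against 20.4% of all genes).

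Of 28 genes for uptake and for clearing dead cells 7 fell and 3 rose, with a median of -0.02, and of 24 scavenger receptor and lectin genes 4 fell and 5 rose, with a median of 0.13. Axl, a receptor for apoptotic cells, stood at 273, 313 and 287 CPM and at 119, 126 and 151 CPM (log2 fold change -1.14 ± 0.10, adjusted p = 3.14e-05). Its ligand Gas6 fell by 0.85, and Mfge8, which bridges apoptotic cells to integrins, by 1.42. Mrc1, the mannose receptor, fell by 1.03, while the scavenger receptor gene Marco rose from 828, 682 and 753 CPM to 1919, 1840.2 and 1459 CPM (log2 fold change 1.21 ± 0.15, adjusted p = 9.79e-05) and the inhibitory lectin Siglece by 1.04. Of 33 protease and matrix genes 8 fell and 2 rose (30.3% called, against 20.4% of all genes), with a median of -0.03. Plau (urokinase), F10 (coagulation factor X) and Mmp12 fell by 1.28, 1.46 and 0.89. Of 18 growth factor genes 5 fell and 2 rose, with Hbegf and Pdgfa at -1.59 and -1.52 beside Vegfa. The receptor genes Kdr, which binds VEGF, and Il7r fell by 1.44 and 1.32. Il7r stood at 504, 571 and 445 CPM in WT and at 179, 188 and 241 CPM in cKO. Itga4, an integrin subunit for adhesion to endothelium, rose from 10.6, 8.05 and 13.2 CPM to 26.8, 34 and 24.4 CPM (log2 fold change 1.42 ± 0.16, adjusted p = 5.91e-05).

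Transcription factors changed in both directions. Klf2, a restrainer of macrophage activation, stood at 4.71, 4.87 and 6.57 CPM and at 17, 18.1 and 16.7 CPM (log2 fold change 1.68 ± 0.13, adjusted p = 2.19e-05). Klf9, a target of the glucocorticoid receptor, stood at 11.6, 16.4 and 9.23 CPM and at 2.27, 2.01 and 3.42 CPM (log2 fold change -2.27 ± 0.24, adjusted p = 4.06e-05). The groups lay apart in both genes, in opposite directions, and over the 14 KLF genes 4 rose and 4 fell. Cebpd, Pou2f2, Maf and Cited2 rose by 1.39, 1.05, 0.75 and 0.63, and Cited4, Runx2, Cebpa and Irf2bp2 fell by 2.60, 1.02, 0.63 and 1.02. Of 20 genes known to respond to glucocorticoids 8 fell and 3 rose, and the 8 include Klf9, Cdkn1c and Sgk1, a kinase gene that stood at 321, 443 and 289.6 CPM and at 92.2, 84 and 134 CPM (log2 fold change -1.76 ± 0.16, adjusted p = 3.14e-05). Tsc22d3, which encodes GILZ, fell by 0.67. Among nuclear receptors and enzymes of their ligands, Dio2, which activates thyroid hormone, fell by 2.08, and the retinoic acid receptor genes Rarg and Rara rose by 0.74 and 0.59.

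Splicing factors had 14 of 74 genes higher and 9 lower (31.1% called, against 20.4% of all genes), around a median of 0.06. Of the kinases that phosphorylate SR proteins, Clk4 stood at 66.7, 88.1 and 57.5 CPM and at 31.1, 31.3 and 39.5 CPM (log2 fold change -1.06 ± 0.13, adjusted p = 0.00011), and Clk1 fell by 0.61. The SR protein gene Srsf2 fell by 0.76, whereas Srsf9, Srsf3 and Srsf1 rose by 0.56, 0.43 and 0.43. Gene totals do not show which isoforms were present. Of 10 host genes of small nucleolar RNAs, 4 fell (Snhg12, Snhg5, Snhg11 and Snhg17, by 1.13, 0.92, 0.83 and 0.75) and 0 rose by edgeR, at an unadjusted p under 0.05, by DESeq2 and by limma-voom.

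A further 10 motifs were searched on both strands, and their shares are given for genes changed at least 2-fold beside all tested genes, with 92 windows for the genes that rose and 234 for those that fell. CACGTG, read above, was in 24 of the 234 (10.3%) and 6 of the 92 (6.52%), against 11.7% of all. Over calls of any size it was in 16.4% of windows of genes that fell and 8.66% of those that rose. TGATGNAA was in 12 of the 234 (5.13%) and 3 of the 92 (3.26%), against 2.87% of all. The AP-1 site (TGANTCA) was in 29 of the 234 (12.4%) and 9 of the 92 (9.78%), against 6.52% of all. The TATA box (TATAAA) was in 28 of the 234 and 12 of the 92, against 8.72%. Shares among genes that rose, genes that fell and all tested genes were 3.26%, 3.42% and 3.63% for the cAMP response element (TGACGTCA). They were 8.7%, 6.41% and 8.25% for the gamma-activated site (TTCNNNGAA), and 3.26%, 4.27% and 4.59% for the CACCC box of KLF proteins (CCACACCC). The D-box (TTANGTAA), also chosen after values were seen, was in 2 of the 92 and 0 of the 234, against 1.78%. The other 4 motifs are longer and degenerate and are given by name. The interferon-stimulated response element was in 9 of the 92 (9.78%) and 9 of the 234 (3.85%), against 4.15% of all. In the same order, the shares were 64.1%, 68.4% and 71.4% for a loose pattern of the NF-kB site. They were 48.9%, 63.2% and 59.1% for a loose pattern of the serum response element. Both patterns leave several positions open to any base and match most windows of tested genes. Their matches therefore cannot be read as sites of these factors. The paired glucocorticoid response element was in 1 of the 92 and 1 of the 234, against 0.281% of all. Matches of different motifs may overlap, and the shares were not tested.

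Stimulation itself changed 9916 of the 13607 genes in WT (72.9%). In unstimulated cells (M0), 237 of the same 13607 genes were called (1.74%), and 89 were called in both states, which is 3.21% of the M1 calls and 37.6% of the M0 calls. The M0 count was 1 without cKO M0 replicate 3, 4 without WT M0 replicate 6, 861 by DESeq2 and 1125 with no filter on low counts, so it depends on single libraries and on the fit. Of these 89, 17 were higher and 53 lower in both, and 19 had opposite signs. The contrasts share no library. The shared rises included the chemokine genes Ccl2, Ccl7 and Cxcl2, at 0.70, 0.99 and 0.79 in M1 and 1.51, 1.56 and 1.03 in M0, and Tnf at 0.60 and 0.52. The shared falls included Mgll, Dio2 and Sorbs3, an adhesion adaptor that stood at 9.16, 11 and 6.98 CPM in WT M1 and at 1.73, 1.62 and 3.03 CPM in cKO M1 (log2 fold change -2.09 in M1 and -1.23 in M0). Fstl1, a secreted follistatin-like protein, fell by 2.15 in M1 and 1.38 in M0. Ugt1a8 had 12, 22 and 24 counts in the WT M1 libraries and 0 in each cKO M1 library, which makes it at least 19.3-fold lower against a floor of 3 counts over the group. It shares its last exons with the other Ugt1a genes, so its count is uncertain.

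Some genes changed sign between states. Spp1 rose by 0.52 in M0 (adjusted p = 0.0105) and fell by 0.85 in M1 and Dusp5 rose by 0.82 (adjusted p = 0.0278) and fell by 0.86. Rarg went the other way, -0.41 in M0 (adjusted p = 0.0423) and 0.74 in M1. Among genes with the clearest interaction, Klf2, Cebpd and Pou2f2 had M0 log2 fold changes of -0.13, -0.27 and -0.26 that were not called. Nlrp3, Il1b and Cd14, described above, had -0.08, -1.39 and 0.16 in M0. Il1b and Cd14 were not called there (edgeR adjusted p = 0.168 and adjusted p = 0.356). Il1b lay near the floor in M0, at a mean of 0.328 CPM in WT and 0.124 CPM in cKO. Of the 328 genes at least 2-fold lower in M1, 145 passed the interaction, and of the 149 at least 2-fold higher, 62 did. These genes were chosen by the M1 effect that enters the interaction, so the counts are a description.

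**Figure D4:**
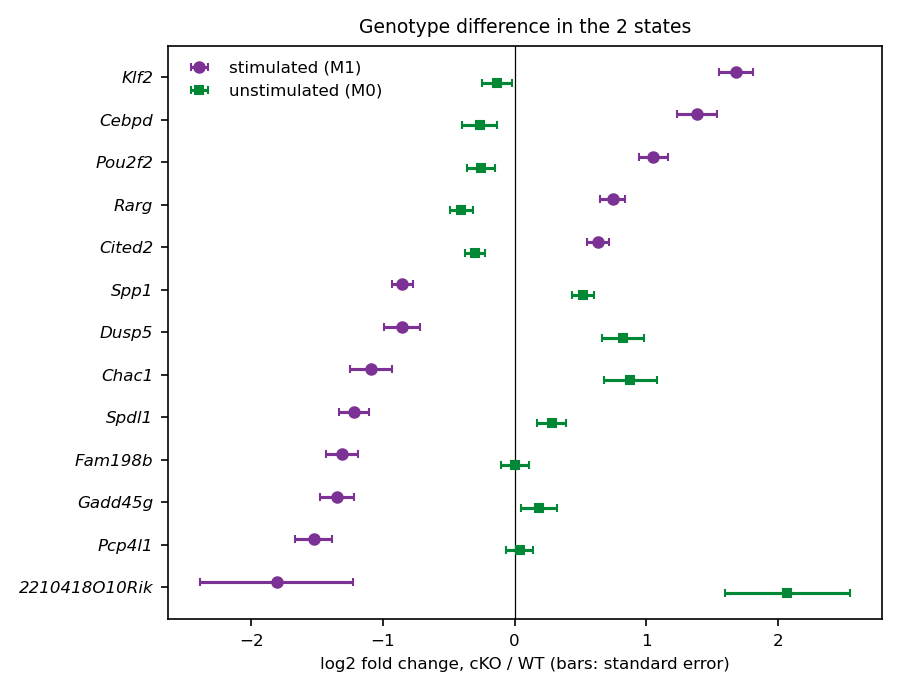
Log2 fold change of cKO over WT with its standard error (horizontal axis) in stimulated (purple circles) and unstimulated (green squares) macrophages, for 13 genes (1 line each) with the clearest interaction or with calls of opposite sign in the 2 states. Klf2, Cebpd and Pou2f2 lie far to the right in M1 only, and Spp1, Dusp5 and Chac1 lie below 0 in M1 and above it in M0.

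Igkc, an immunoglobulin light chain gene of B and plasma cells, had 31, 60 and 43 counts in WT M1 and 0 in each cKO M1 library, at least 44.7-fold lower against a floor of 3 counts over the group, but missed the threshold (edgeR adjusted p = 0.0775). Its counts in the unstimulated cKO libraries were 318, 4 and 0. Ajuba, a LIM protein gene, and Ccno rose by 2.75 and 2.69 from levels under 1 CPM in WT. At the other end, 1554 genes (11.4%) had a 95% interval that lay within 1.2-fold of no change, and 0 of these were called. Among abundant ones, Hmox1, the heme oxygenase gene, stood at 3568, 3504 and 3514 CPM in WT and 3827, 3779 and 3844 CPM in cKO (log2 fold change 0.11 ± 0.06), and Rab7, a late endosome GTPase, at 605 to 617 CPM and 559 to 586 CPM (log2 fold change -0.09 ± 0.06).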

How the data were processed

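RNA-seq gene counts of 12 libraries were used, of which the 6 M1 libraries form the comparison. Per the submitters' processing notes, featureCounts 2.0.3, HISAT2 2.2.1, Trimmomatic 0.39 and SAMtools 1.16.1 were used with GRCm39. The values are read counts per gene as the authors deposited them. How strand and multi-mapping reads were treated is not given in the sources. Of values from 1 to 10, between 56.65% and 63.33% were even in each library, so the 2 mates of a read pair may have been counted separately. A minimum of 10 counts or a floor of 3 counts may then stand for fewer read pairs. With counts halved, 96.4% of the M1 calls were kept. Groups follow the labels. Genes were filtered with filterByExpr (minimum count 10, minimum total 15), scaled by TMM factors and fitted over all 12 libraries with edgeR 4.0.16 (R 4.3.3, quasi-likelihood F-test), with Benjamini-Hochberg adjustment over 15110 genes and a threshold of 0.05. The scripts were tested on simulated data. Alternatives used limma 3.58.1, DESeq2 1.42.0, other scalings and filters, and each library left out.

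Genes were named by rule: the largest changes without overlap each way, also by band of level, up to 6 per list by p, the largest shared with M0, the clearest interactions, and genes near 0 in 1 genotype. Other list members named, and the motifs CACGTG, TGATGNAA and TTANGTAA, were chosen after their values were seen. Members and lists were chosen with earlier results of these data known. Promoter windows came from RefSeq on GRCm38.p6, matched by symbol, and no coordinate was converted between builds. A few genes are not reported here.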

Additional observations from a re-analysis of the deposited data

Results flagged for a closer look

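The effect of genotype differed between stimulated and unstimulated cells, by edgeR's interaction test, for 1222 of the 13607 tested genes (8.98%). The values that follow are the log2 effect in M1 minus that in M0. It was positive for Klf2 (1.82), Cebpd (1.65), Pou2f2 (1.31), Rarg (1.15) and Cited2 (0.93). It was negative for Gadd45g (-1.53), Pcp4l1 (-1.56), Spdl1 (-1.50), Fam198b (-1.31), Spp1 (-1.37), Dusp5 (-1.68), Chac1 (-1.97) and 2210418O10Rik (-3.88). These genes had either the smallest p of that test or calls of opposite sign in the 2 states, so their choice used the values given.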

How the results depend on the processing

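No named gene that passed the test in M1 changed direction under the alternatives run. The balance of M1 calls did turn with library totals alone, to 1955 higher and 1217 lower. The 1336 genes higher in M1 became 844 when the 6 M1 libraries were fitted alone and 50 when a change beyond 1.5-fold was tested (glmTreat), and lay between 661 and 1352 with 1 library left out. The 1439 lower became 165 under glmTreat and lay between 969 and 1670. In M0 the 237 calls became 1125 with no filter on low counts, 861 by DESeq2, 467 by limma-voom, 357 with counts halved and 1 under glmTreat, and between 1 (without cKO replicate 3) and 439 with 1 library left out. The 1222 interaction calls became 1922 with no filter, 1864 by DESeq2 and 31 under glmTreat, and between 560 and 1553. The 9916 genes called between M1 and M0 in WT became 5944 under glmTreat. Of the M1 calls, 99.2% were shared with DESeq2, 89.9% with limma-voom and 57.7% with the fit without WT replicate 11. No paired analysis was possible because the groups compared share no replicate number. Genes under 1 CPM had a median standard error of 0.428 on the log2 scale, which limits what could be called there.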
